A study of Mus musculus with 40 samples.

Results

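Uptake of glucose into the liver, its phosphorylation and the regulated steps of glycolysis were followed through 9 genes, out of 40594 genes present in both count tables of the series. They were chosen by name for their place in the pathway: the glucose transporter gene Slc2a2, the hexokinase genes Hk1, Hk2 and Hk3, the regulatory protein gene Gckr, the enzyme genes Pfkl, Pgam1 and Pklr, and the kinase gene Pdk4. All 9 passed the filter on low counts and were among the 12942 genes tested. RNA of 40 livers was sequenced after poly-A selection, 1 library per male mouse, in 8 groups of 5. Wild-type (WT) mice were purchased C57BL6/J animals, and knockout (KO) mice carried loxP sites in Pparg together with Cre recombinase under the albumin promoter, which is active in hepatocytes. Both genotypes were fed for 3 months, to an age of 5 months, with control diet (control), control diet containing pioglitazone (Pio, a drug that activates PPARγ), high-fat diet (HFD) or HFD containing pioglitazone (HFD-Pio). Pioglitazone was 0.01% of the diet, and fat gave 60% of the calories of the HFD. The WT control, WT Pio, WT HFD and WT HFD-Pio groups thus differ from the KO control, KO Pio, KO HFD and KO HFD-Pio groups in genotype, source of the animals and count table, which cannot be told apart, so levels were compared between diets and drug within a genotype.

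Glucose enters hepatocytes by facilitated diffusion and is trapped inside the cell by phosphorylation, a step that hexokinases catalyse. Phosphofructokinase and pyruvate kinase then set the pace of glycolysis, and pyruvate dehydrogenase kinases decide whether pyruvate is oxidised in mitochondria. The hexokinases with high affinity for glucose are typical of muscle, fat and blood cells and are scarce in hepatocytes.

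Libraries held 15788242 to 49857017 counts in WT mice (median 23083120) and 21542958 to 28334251 in KO mice (median 24703923). Values below are CPM, read counts scaled to a common library size and normalised with TMM factors, and the members had between 16 and 21986 counts in a library. The intervals and p values treat each read as 1 observation and cover counting error and the spread between mice, not copies made during amplification. All 7 hepatocyte markers were found in every library, and albumin RNA (Alb) ranged from 10662.8 to 109384 CPM.

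Pparg, the gene deleted in KO hepatocytes (ENSMUSG00000000440, chromosome 6, 115360951 to 115490399 in GRCm38), was counted over the whole gene, undeleted exons and other cells included, so its counts check nothing about the deletion. In WT mice it was at 9.53, 10.4, 10.2, 5.79 and 7.08 CPM on control diet, 10.8, 12.5, 12.5, 11.9 and 14.2 with Pio, 10.9, 12.6, 12.3, 9.01 and 11.6 on HFD, and 11.1, 12.6, 9.72, 11.3 and 7.52 on HFD-Pio. In KO mice it was at 7.82, 6.43, 3.67, 8.97 and 9.90 CPM on control diet, 3.01, 6.57, 4.72, 4.30 and 4.37 with Pio, 7.19, 7.08, 8.53, 3.50 and 5.15 on HFD, and 5.28, 9.69, 6.80, 6.10 and 8.46 on HFD-Pio. The ranges of the genotypes overlapped on control diet and on HFD-Pio, and lay apart with Pio and on HFD. Pio on control diet gave Pparg log2 fold changes of 0.53 in WT and -0.68 in KO mice, neither called by edgeR. Limma called both (0.85 and -0.76), and DESeq2 called the KO value (-0.67). The KO response minus the WT response was -1.21 (SE 0.32, 5 of 5 WT Pio mice above every control, 1 of 5 KO Pio mice below every control). This difference was called by the quasi-likelihood test of edgeR (Benjamini-Hochberg adjusted p = 0.0219) and in 40 of 40 fits that each left out 1 mouse.

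Several libraries stood apart from the rest of their genotype. The liver of KO Pio mouse 13 had a mean Spearman correlation of 0.776 with the other 4 KO Pio libraries and lay alone on a first principal component that held 56.9% of the variance among KO mice. Its hepatocyte markers summed to 32116.8 CPM, against 114621, 122146, 99603.8 and 91730.4 in the other KO Pio mice. Cholangiocyte markers summed to 14.4, 19.5, 73.1, 15.4 and 16.5 CPM in KO Pio mice 11 to 15, and pancreatic acinar markers to 0.701, 0.862, 131, 2.15 and 0.532 CPM, both highest in mouse 13. In KO HFD mouse 9 the neutrophil and monocyte markers summed to 539.8 CPM, against 53.2, 46.6, 46.8 and 81.0 in its group, and macrophage markers to 859, against 381, 391, 398 and 469. KO HFD mouse 10 held 457 CPM of acinar markers, of which Ctrb1, a digestive protease gene, made up 178, and 17.8 CPM of skeletal muscle markers, against 0.493, 0.322, 0.426 and 0.433 in its group. WT control mouse 832 had 455 CPM of stellate cell markers, against 156, 179.8, 156 and 159.5 in its group, with Col1a1, a collagen gene, at 116. Whether these cells contributed to the members' values in these mice was not tested, and bulk RNA cannot tell fewer cells of a type from less RNA per cell.

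The members lie on 6 chromosomes of GRCm38. Slc2a2 (ENSMUSG00000027690) lies on chromosome 3 from 28697903 to 28731359, and Pklr (ENSMUSG00000041237) on the same chromosome from 89136142 to 89146784. Hk2 (ENSMUSG00000000628) and Pdk4 (ENSMUSG00000019577) lie on chromosome 6, from 82725025 to 82774454 and from 5483351 to 5496309. Hk1 (ENSMUSG00000037012) and Pfkl (ENSMUSG00000020277) share chromosome 10, at 62268855 to 62379908 and at 77986947 to 78010083. Hk3 (ENSMUSG00000025877) is on chromosome 13 from 55005985 to 55021385, Gckr (ENSMUSG00000059434) on chromosome 5 from 31297443 to 31327314, and Pgam1 (ENSMUSG00000011752) on chromosome 19 from 41911923 to 41918660. Exons of Hk1 overlap those of the antisense gene Hk1os, exons of Hk3 those of Unc5a, a netrin receptor gene, and exons of Pklr those of Hcn3, an ion channel gene. The paper counted only unambiguous reads, and the strand setting of the counting was not stated. Whether reads on the shared exons were left out or assigned by strand is therefore not known.

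Per kilobase of exon, the members' levels spread widely. Averaged over the 20 WT mice, Pklr, the liver's pyruvate kinase gene, was at 128 ± 67.3 CPM per kb (SD, n = 20), Slc2a2 at 34.8 ± 8.33, Gckr at 31.4 ± 5.78 and Pfkl, the liver-type phosphofructokinase gene, at 9.18 ± 1.63. Slc2a2 and Gckr did not differ beyond their spread. Pdk4 followed at 2.69 ± 1.36 CPM per kb, Hk3 at 1.67 ± 0.450, Pgam1 at 1.58 ± 0.591, Hk2 at 1.05 ± 0.820 and Hk1 at 1.03 ± 0.300, each within the spread of its neighbour. In KO mice the order per kb was Pklr at 85.3 ± 59.7, Slc2a2 at 39.4 ± 15.5, Gckr at 30.1 ± 6.52, Pfkl at 6.19 ± 1.61, Pgam1 at 2.38 ± 2.28, Hk3 at 2.06 ± 0.922, Pdk4 at 1.89 ± 0.795, Hk1 at 0.760 ± 0.369 and Hk2 at 0.374 ± 0.190. Pgam1, Hk3 and Pdk4 lay within each other's spread there, and the Pgam1 mean includes KO Pio mouse 13 at 12.0 CPM per kb. Between the highest and the lowest of the 40 mice, Pgam1 varied 29.4-fold, or 6.91-fold without KO Pio mouse 13, Hk2 16.0-fold, Pklr 15.5-fold and Pfkl 2.68-fold.

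How many members responded to drug or diet was asked in each genotype with edgeR's quasi-likelihood test, p values adjusted by Benjamini-Hochberg over the 12942 genes and genes with an adjusted p no higher than 0.05 called. The comparisons share groups: each control group serves both a Pio and an HFD comparison, and so do the others. Pio on control diet in WT mice called 1 of the 9 members, against 3.91% of all genes tested, and Pio on HFD called 1 of 9, against 1.08%. HFD without Pio in WT mice gave 0 calls from edgeR (1.31% of all genes), with 1 member at an unadjusted p under 0.05 and 0 called by DESeq2 or limma. With Pio, HFD in WT mice gave 0 calls by edgeR (1.22% of all genes), with 1 member at an unadjusted p under 0.05. DESeq2 called 0 members there and limma 2, where limma called 2937 of the 12942 genes. In KO mice, Pio on control diet called 1 of 9 members, against 9.01% of all genes. Pio on HFD in KO mice gave 0 calls by edgeR (0.0155% of all genes), 0 members at an unadjusted p under 0.05, and 0 calls by DESeq2 or limma. HFD without Pio in KO mice gave 0 calls by edgeR (0.185% of all genes), with 1 member at an unadjusted p under 0.05 and 0 calls by DESeq2 or limma. HFD with Pio in KO mice gave 0 calls by edgeR (4.96% of all genes), with 3 members at an unadjusted p under 0.05, 2 called by DESeq2 and 0 by limma. Without KO Pio mouse 13, the genes called among all tested were 66 instead of 1166 for Pio on control diet in KO mice, where 0 members were then called by edgeR, and 12 instead of 642 for HFD with Pio.

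Members whose groups of 5 did not overlap at all were counted as well. Gckr in Pio on HFD in WT mice was 1 of 9, where 7.12% of all genes had no overlap between the groups. The other 7 comparisons within a genotype had 0 of 9 members without overlap. The share among all genes was 7.53% for Pio on control diet, 3.05% for HFD without Pio and 6.49% for HFD with Pio in WT mice. In KO mice it was 3.7% for Pio on control diet, 0.61% for Pio on HFD, 3.04% for HFD without Pio and 2.43% for HFD with Pio.

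**Figure D1:**
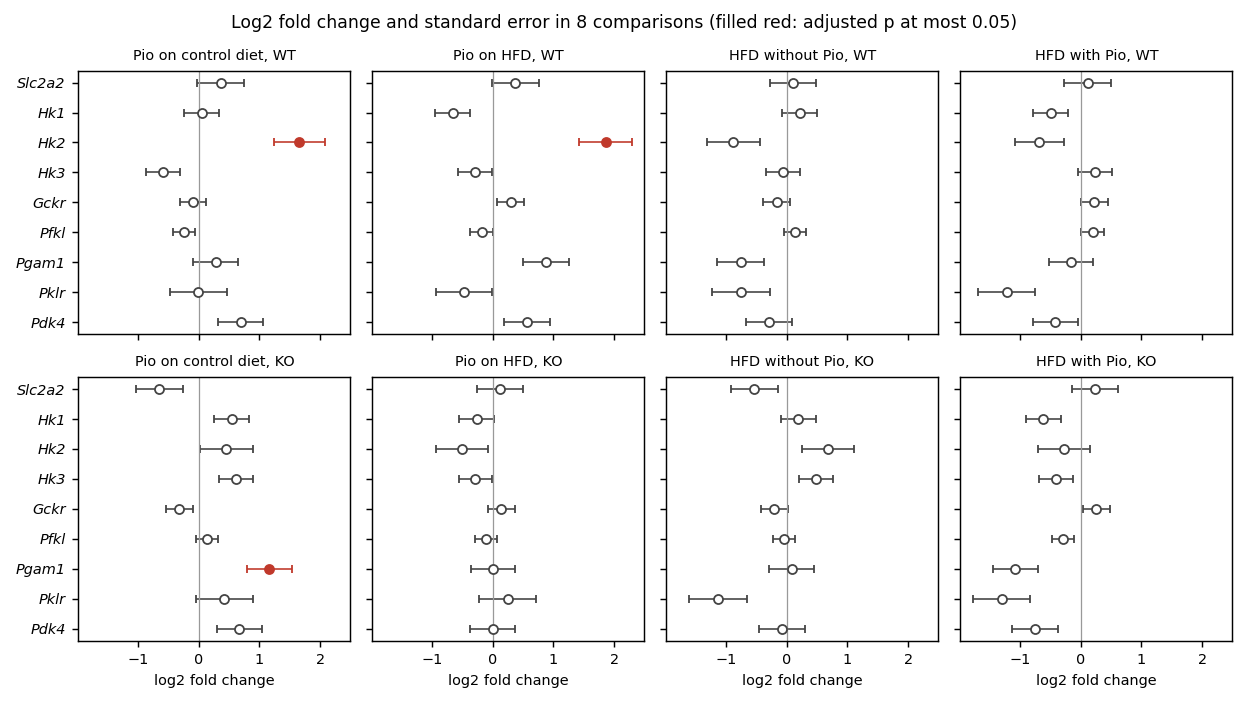
The log2 fold change of each of the 9 members (horizontal axis, with its standard error as bars) in the 8 comparisons within a genotype, filled where the adjusted p was at most 0.05. The filled points are Hk2 in WT mice given Pio, on control diet (1.66) and on HFD (1.86), and Pgam1 in KO mice given Pio on control diet (1.16).

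Hk2 encodes a high-affinity hexokinase that binds mitochondria and is abundant in muscle and fat. In WT mice on control diet it was at 1.51, 9.72, 3.14, 2.30 and 2.24 CPM in mice 831 to 835, and with Pio at 13.9, 12.0, 6.47, 10.2 and 17.0 CPM in mice 841 to 845. Of the Pio mice, 4 of 5 lay above every control, and mouse 843, at 6.47, lay below control mouse 832, at 9.72. Means were 3.78 ± 3.37 CPM (SD, n = 5) in control and 11.9 ± 3.97 in Pio mice. Hk2 rose with a log2 fold change (log2 of the ratio of the group means) of 1.66 (SE 0.42, higher in 4 of 5 mice than in any control; edgeR's quasi-likelihood test, Benjamini-Hochberg adjusted p = 0.0187). Leaving out control mouse 832 gave 2.39. The call was lost without control mouse 831 (1.44), 834 (1.51) or 835 (1.50), or without Pio mouse 845 (1.49), and kept in 36 of 40 fits that each left out 1 mouse.

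On HFD, Hk2 was at 2.66, 3.26, 1.77, 1.06 and 1.50 CPM in WT mice 826 to 830 and at 8.89, 11.8, 3.18, 9.36 and 3.74 CPM in HFD-Pio mice 836 to 840. Again 4 of 5 treated mice lay above every untreated one, while mouse 838, at 3.18, lay just under HFD mouse 827. The means were 2.05 ± 0.895 CPM (SD, n = 5) on HFD and 7.40 ± 3.77 on HFD-Pio. Hk2 rose by a log2 fold change of 1.86 (SE 0.44, 4 of 5 mice above all HFD mice, same edgeR test with Benjamini-Hochberg, adjusted p = 0.0254). The call was kept in 35 of 40 fits without 1 mouse and lost without HFD mouse 828 (1.82) or 829 (1.69), or HFD-Pio mouse 836 (1.79), 837 (1.63) or 839 (1.78). It was also lost where the genotypes were fitted apart. The Pio responses of Hk2 on the 2 diets differed by 0.20, which the same edgeR test with Benjamini-Hochberg did not call (adjusted p = 0.939). HFD itself gave an Hk2 log2 fold change of -0.88 without Pio, uncalled, and -0.15 without control mouse 832.

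In KO mice Hk2 was called in 0 comparisons by edgeR, DESeq2 or limma, with 0 at an unadjusted p under 0.05. It was at 1.35, 1.67, 1.81, 1.99 and 1.92 CPM in control mice 1 to 5 and at 1.402, 2.91, 3.50, 2.03 and 2.13 CPM in Pio mice 11 to 15. On HFD it was at 1.19, 1.75, 2.05, 6.45 and 2.55 CPM in mice 6 to 10, and on HFD-Pio at 2.40, 2.38, 1.50, 1.91 and 1.70 CPM in mice 16 to 20. On control diet 4 of 5 KO Pio mice lay above every KO control and mouse 11 overlapped them. The HFD and HFD-Pio groups overlapped, and the highest value was that of HFD mouse 9. Pio gave Hk2 log2 fold changes of 0.45 on control diet and -0.50 on HFD in KO mice, neither called. The former was 0.30 without Pio mouse 13 and the latter 0.070 without HFD mouse 9. The KO response minus the WT response was -1.20 on control diet and -2.36 (SE 0.61) on HFD. Neither difference was called by the same edgeR test with Benjamini-Hochberg (adjusted p = 0.188 and 0.230, with 4 of 5 Pio mice above every untreated mouse on control diet in both genotypes, and on HFD 4 of 5 in WT and 0 of 5 in KO mice), so the Hk2 response is not shown to differ between genotypes. Without WT control mouse 832 the difference on control diet was called, at -1.94. Limma also called the difference on control diet with every mouse kept, and DESeq2 called the difference on HFD, at -2.38. By edgeR the difference on HFD was -1.80 without KO HFD mouse 9, and not called.

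**Figure D2:**
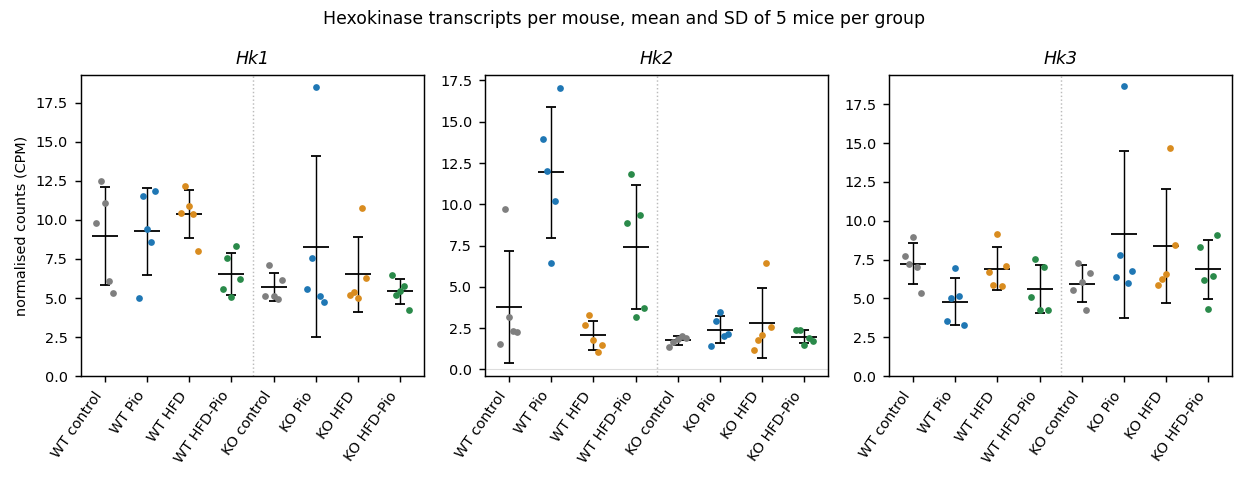
CPM of Hk1, Hk2 and Hk3 (vertical axes) in each mouse of the 8 groups, with the group mean and SD. On control diet WT mice held 6.47 to 17.0 CPM of Hk2 with Pio and 1.51 to 9.72 without it. On HFD they held 3.18 to 11.8 CPM with Pio and 1.06 to 3.26 without it. The KO groups lay between 1.19 and 6.45 CPM, the highest in KO HFD mouse 9, and levels were not tested between genotypes.

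Hk1, which encodes the housekeeping hexokinase of most tissues, ranged from 4.26 to 18.5 CPM over the 40 mice and was called in 0 of 8 comparisons within a genotype by edgeR, with 2 at an unadjusted p under 0.05 and 0 called by DESeq2 or limma. With Pio on HFD in WT mice its log2 fold change was -0.66 (SE 0.29), 4 of 5 HFD-Pio mice lying below every HFD mouse, and the same edgeR test with Benjamini-Hochberg gave an adjusted p of 0.257. It was called when KO Pio mouse 13 and KO HFD mouse 9 were left out (-0.64), and with WT control mouse 832 left out too (-0.65). Its highest value was that of KO Pio mouse 13. Pio on control diet in KO mice gave 0.54 with that mouse and 0.033 without it, and HFD with Pio gave -0.61 and -0.091.

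Hk3, a hexokinase gene typical of blood cells, was at 7.76, 7.19, 8.94, 7.01 and 5.34 CPM in WT control mice and at 3.56, 5.06, 6.99, 5.13 and 3.27 CPM in WT Pio mice. In 4 of 5 Pio mice it lay below every control, and mouse 843 overlapped them. KO control mice had 5.52, 7.31, 6.07, 4.26 and 6.66 CPM of Hk3, and KO Pio mice 6.39, 7.83, 18.6, 6.01 and 6.76 CPM, of which mouse 13 is the 18.6. Log2 fold changes with Pio on control diet were -0.59 (SE 0.28) in WT and 0.61 in KO mice, neither called. The KO value was 0.20 without mouse 13, and the WT value was called, at -0.58, when KO Pio mouse 13 and KO HFD mouse 9 were left out. The difference between the genotypes, 1.20 (SE 0.39), missed the call of the same edgeR test with Benjamini-Hochberg (adjusted p = 0.0510; 4 of 5 WT Pio mice below all controls, 2 of 5 KO Pio mice above all controls). It was 0.78 without KO Pio mouse 13. The difference was called in 8 of 40 fits without 1 mouse: without WT control mouse 835 (1.30), WT Pio mouse 843 (1.38), WT HFD mouse 829 (1.21), KO HFD mouse 9 (1.21), or KO Pio mouse 11 (1.32), 12 (1.28), 14 (1.32) or 15 (1.30). DESeq2 also called it, at 1.22.

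Slc2a2, whose product carries glucose in both directions across the hepatocyte membrane, ranged from 27.9 CPM in KO HFD mouse 9 to 374 in KO control mouse 3. It was called in 0 of the 8 comparisons within a genotype by edgeR, by DESeq2 and by limma, with 0 at an unadjusted p under 0.05. Its log2 fold changes ran from -0.65, for Pio on control diet in KO mice, to 0.37, for Pio on HFD in WT mice. The former was -0.36 without KO Pio mouse 13, whose value was 36.2 CPM. HFD without Pio in KO mice gave -0.53, and -0.25 without mouse 9.

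Gckr, whose product binds an enzyme that phosphorylates glucose in the liver, was at 98.3, 121, 136, 129 and 135 CPM in WT HFD mice and at 175, 146, 149, 151 and 138 CPM in WT HFD-Pio mice. All 5 HFD-Pio mice lay above all 5 HFD mice. The log2 fold change was 0.29 (SE 0.22) and the same edgeR test with Benjamini-Hochberg did not call it (adjusted p = 0.543, higher in 5 of 5 mice). Over the 8 comparisons within a genotype Gckr ran from -0.32 to 0.29, with 0 called by edgeR, DESeq2 or limma and 0 at an unadjusted p under 0.05. The -0.32, for Pio on control diet in KO mice, was -0.072 without KO Pio mouse 13.

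Pfkl, the gene of liver phosphofructokinase, ranged from 31.2 to 83.4 CPM, the highest again in KO Pio mouse 13. Its log2 fold changes within a genotype lay between -0.29 and 0.20, and edgeR called 0 of 8, with 0 at an unadjusted p under 0.05 and 0 called by DESeq2. The -0.29, for HFD with Pio in KO mice, was 0.032 without mouse 13, and Pio on control diet in KO mice went from 0.14 to -0.17. Limma called Pfkl lower with Pio on control diet (-0.31) and higher on HFD with Pio (0.35) in WT mice.

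**Figure D3:**
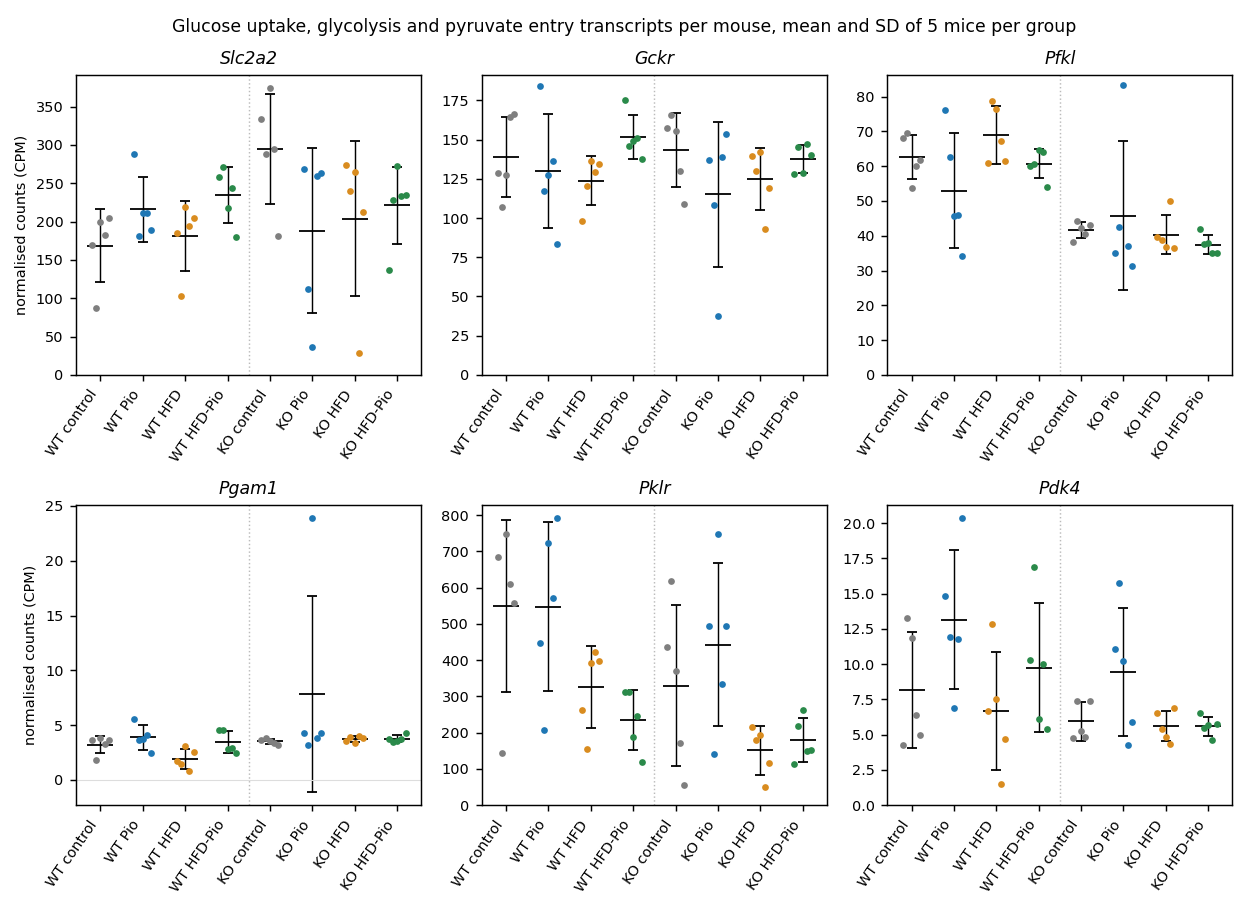
CPM of Slc2a2, Gckr, Pfkl, Pgam1, Pklr and Pdk4 (vertical axes) in each mouse of the 8 groups, with the group mean and SD. KO Pio mouse 13 is the highest of its group for Pgam1 (23.8 CPM) and Pfkl (83.4) and the lowest for Slc2a2 (36.2) and Gckr (37.5).

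Pgam1 encodes phosphoglycerate mutase, which moves the phosphate group of a glycolysis intermediate. In KO control mice it was at 3.65, 3.84, 3.54, 3.40 and 3.17 CPM and in KO Pio mice at 4.33, 3.16, 23.8, 3.82 and 4.26 CPM. Mouse 13 stood far above its group, 2 more of the 5 Pio mice lay above every control, mouse 14 overlapped them and mouse 12 lay below every control. The means were 3.52 ± 0.255 CPM (SD, n = 5) in control and 7.88 ± 8.94 in Pio mice. Pgam1 was called higher at a log2 fold change of 1.16 (SE 0.37, 3 of 5 Pio mice above and 1 below every control, same edgeR test with Benjamini-Hochberg, adjusted p = 0.0422). Without mouse 13 it was 0.16 (SE 0.24) and not called. The call was also lost without control mouse 1 (1.18), 2 (1.20), 3 (1.18), 4 (1.15) or 5 (1.13), and limma did not make it.

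In WT mice Pgam1 was at 1.74, 1.42, 3.06, 0.810 and 2.58 CPM on HFD and at 4.58, 4.58, 2.86, 2.94 and 2.45 CPM on HFD-Pio. The groups overlapped, with 2 of 5 HFD-Pio mice above every HFD mouse. Pio gave a log2 fold change of 0.88, not called by the same edgeR test with Benjamini-Hochberg (adjusted p = 0.257), though limma called Pgam1 higher. HFD without Pio gave -0.76, not called by edgeR, DESeq2 or limma. Without KO Pio mouse 13, which is in none of these groups, both were called, at 0.90 (SE 0.24) and -0.77 (SE 0.24). With every mouse kept, the Pgam1 SE was 0.37 to 0.38 over the 8 comparisons within a genotype. The fit gives each gene 1 estimate of the spread, shared by all 8 groups, that of mouse 13 included. The part of this mouse in the missed calls was not tested further. HFD with Pio in KO mice gave a Pgam1 log2 fold change of -1.07, not called, and -0.060 without mouse 13. It was called lower without KO Pio mouse 11 (-1.24), 12 (-1.30), 14 (-1.25) or 15 (-1.23), and by DESeq2 (-1.11).

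Pklr makes the pyruvate kinase of the liver, a gene known to respond to carbohydrate. In WT mice it was at 685, 145, 748, 609 and 557 CPM on control diet and 261, 156, 391, 422 and 399 CPM on HFD. Control mouse 832, at 145, lay below all HFD mice, and the other 4 controls lay above them. With Pio it was at 447, 207, 722, 570.1 and 791 CPM on control diet and at 313, 311, 188, 245 and 118 CPM on HFD, where mouse 842, at 207, overlapped the HFD-Pio group. The HFD log2 fold changes of Pklr were -0.75 without Pio and -1.22 (SE 0.47) with it, and edgeR called neither, though limma called the latter.

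In KO mice Pklr was at 435, 618, 371, 171 and 56.3 CPM on control diet and 215, 179, 194, 51.0 and 116 CPM on HFD. These groups overlapped through control mice 4 and 5. With Pio it was at 494, 140.2, 749, 336 and 494 CPM on control diet and at 114, 219.6, 262, 149 and 153 CPM on HFD, and mouse 12, at 140.2, was the Pio mouse that overlapped the HFD-Pio group. The log2 fold change on HFD was -1.13 without Pio and -1.30 (SE 0.47) with it, where 4 of 5 KO Pio mice lay above all HFD-Pio mice and the same edgeR test with Benjamini-Hochberg gave an adjusted p of 0.0835. Without mouse 12 the latter was called, at -1.55, without mouse 13 it was -1.03, and DESeq2 called it, at -1.32. All 4 HFD comparisons thus had a negative Pklr value and 0 were called by edgeR, with 3 at an unadjusted p under 0.05. Within a genotype Pio gave Pklr values from -0.47, on HFD in WT mice, to 0.42, on control diet in KO mice, and the latter was 0.17 without mouse 13.

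Pdk4 encodes a kinase that switches off pyruvate dehydrogenase and is a known target of fasting signals. It ranged from 1.52 to 20.4 CPM, lowest in WT HFD mouse 829 and highest in WT Pio mouse 845. With Pio its log2 fold changes were 0.69 on control diet and 0.56 on HFD in WT mice, and 0.67 and -0.0014 in KO mice. HFD with Pio gave -0.75 in KO mice. Of the 8 comparisons within a genotype edgeR called 0, as did DESeq2 and limma, and 0 had an unadjusted p under 0.05.

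Whether the response to Pio depended on diet, and whether responses differed between genotypes, was tested on the differences themselves. For the diet dependence of Pio, edgeR called 0 of 9 members in WT mice (0.0773% of all genes) and 0 of 9 in KO mice (0% of all genes), with 0 and 2 at an unadjusted p under 0.05. DESeq2 called 0 in both, and limma 2 in WT mice, Hk1 (-0.95) and Gckr (0.56), and 0 in KO mice. Of all genes tested limma called 1378 for this difference in WT and 52 in KO mice. For KO minus WT, Pio on control diet gave 0 edgeR calls (7.87% of all genes), with 1 member at an unadjusted p under 0.05. DESeq2 called 1 (Hk3) and limma 1 (Hk2, -1.76), where limma called 1998 of all genes tested. Pio on HFD gave 0 (0.0927% of all genes), with 1 member at an unadjusted p under 0.05, 1 call by DESeq2 (Hk2) and 0 by limma. HFD without Pio gave 0 (0.0618% of all genes), with 1 member at an unadjusted p under 0.05 and 0 called by DESeq2 or limma. HFD with Pio gave 0 (0.0155% of all genes), with 0 at an unadjusted p under 0.05 and 0 called by DESeq2 or limma.

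Taking the members as a list, 5 of 9 had a positive log2 fold change in WT mice given Pio on control diet (median 0.05, all genes -0.02) and 5 of 9 on HFD (median 0.29, all genes -0.02). HFD gave 3 positive values without Pio (median -0.17, all genes 0.0020) and 4 with Pio (median -0.16, all genes -0.0072). In KO mice 7 of 9 were positive with Pio on control diet (median 0.45, all genes 0.03) and 4 on HFD (median -0.0014, all genes 0.00073). HFD gave 4 positive values without Pio (median -0.045, all genes -0.01) and 2 with Pio (median -0.41, all genes -0.02) in KO mice. Without KO Pio mouse 13 the KO medians were 0.16 for Pio on control diet, with 6 of 9 positive, and -0.060 for HFD with Pio, with 3 of 9 positive.

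The other enzymes of glycolysis form a list of 19 genes, of which 16 were tested, and edgeR called 2 of 224 tests over the 14 comparisons, with 31 at an unadjusted p under 0.05, 6 called by DESeq2 and 25 by limma. Both edgeR calls were Ldhb, a lactate dehydrogenase subunit gene, in comparisons that called 3.91% and 7.87% of all genes. Ldhb rose in WT mice given Pio on control diet, from 1.10 ± 0.396 to 3.05 ± 1.20 CPM (SD, n = 5), at 1.46, and remained called in all 40 fits without 1 mouse. Its response was lower in KO than in WT mice on control diet, a call kept in 11 of 40 such fits. The 5 genes that set the level of the allosteric activator of phosphofructokinase gave 0 edgeR calls in 70 tests, with 9 at an unadjusted p under 0.05, 2 called by DESeq2 and 1 by limma.

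Of 14 genes of pyruvate entry and pyruvate dehydrogenase 13 were tested. Pdha1, which encodes the catalytic subunit, rose in WT mice given Pio on control diet (0.68, kept in 34 of 40 fits without 1 mouse), and Pdp2, a phosphatase gene that switches the enzyme on, was higher on HFD (0.67, kept in 10 of 40). In KO mice Mpc2, a pyruvate carrier gene, and Dlat, an acetyltransferase subunit gene, were called higher with Pio on control diet (1.44 and 0.93) and lower on HFD with Pio (-1.49 and -0.89). Without KO Pio mouse 13 none of these 4 KO calls held. Mpc2 was then at -0.079 with Pio, Dlat at 0.51. On control diet the KO response to Pio exceeded the WT response for Mpc2 and was below it for Pdpr, a phosphatase regulator gene, in 27 and 13 of 40 fits, and both calls were lost without mouse 13, at 0.53 and -0.65.

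Among the opposing enzymes of gluconeogenesis, 6 of 7 tested, edgeR called Pck2, the mitochondrial PEP carboxykinase gene, alone. With Pio on control diet it fell in WT mice from 11.0 ± 6.53 to 5.36 ± 1.10 CPM (SD, n = 5), a log2 fold change of -1.03, and rose in KO mice from 4.62 ± 0.699 to 10.6 ± 5.85 CPM, at 1.19. The difference between the genotypes was called in all 40 fits without 1 mouse. The WT call was lost without control mouse 832 (-0.60) or Pio mouse 842 or 845, and the KO call without Pio mouse 13 (0.88). HFD with Pio called Pck2 lower in KO mice, at -1.20. That call was kept in 34 of 40 fits and lost without Pio mouse 13 (-0.87) or any 1 of HFD-Pio mice 16 to 20.

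Of 8 other transporter genes 6 were tested. Slc2a4, the insulin-responsive transporter gene of muscle and fat, fell on HFD in WT mice, from 3.10 ± 1.59 to 0.468 ± 0.244 CPM (SD, n = 5), at -2.69 in 40 of 40 fits without 1 mouse. With Pio it fell from 3.87 ± 1.28 to 0.767 ± 0.322 CPM, at -2.31, a call lost without HFD-Pio mouse 838. In KO mice it was lower on HFD with Pio (-1.75), kept in 30 of 40 fits and lost without Pio mouse 13 (-1.56) among others. Slc2a1, the widespread transporter gene, and Slc2a8, an intracellular one, were called higher with Pio on control diet in KO mice (1.05 and 1.11), and without mouse 13 were at 0.71 and 0.097, uncalled.

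Of the 14 regulators of the carbohydrate response and fructose enzymes, all tested, Srebf1, a lipogenic transcription factor gene, was called lower on HFD with Pio in KO mice (-1.54, and -0.36 without Pio mouse 13), the single edgeR call in 196 tests, of which 18 had an unadjusted p under 0.05, DESeq2 called 6 and limma 9. Among 8 lipogenic genes HFD lowered 4 in WT mice without Pio, where 1.31% of all genes were called, and 4 with it (1.22% of all genes). Pnpla3, a lipid droplet gene, was at -4.60 and -4.24, in 40 of 40 fits without 1 mouse. Acly, the ATP citrate lyase gene, was at -1.93 and -1.97, and Scd1, a desaturase gene, at -2.51 and -2.25. Acaca, the acetyl-CoA carboxylase gene, was at -1.51 on HFD with Pio. Fasn, the fatty acid synthase gene and the 4th called without Pio, is named after its value was seen (-1.78, kept in 15 of 40 fits). Pnpla3 was also called in KO mice, higher with Pio on control diet (3.15, and 3.27 without mouse 13) and lower on HFD with Pio (-3.44, and -3.54 without mouse 13).

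Of 11 fasting and fatty acid oxidation genes known as targets of PPARα, all tested, Pio on control diet called 4 in WT mice (3.91% of all genes). Fgf21, a fasting hormone gene, fell from 18.9 ± 12.6 to 2.30 ± 1.15 CPM (SD, n = 5), at -3.01. Vnn1, a pantetheinase gene, rose at 1.81, and both calls were kept in 40 of 40 fits without 1 mouse. Cpt1a, a carnitine transferase gene, is named after its value was seen (0.60, 36 of 40 fits). On HFD Pio raised Vnn1 (1.34, 13 of 40). HFD without Pio raised Cpt1a (0.63, 33 of 40 fits), and with Pio it raised Angptl4, a lipase inhibitor gene (0.94), and Cpt2 (0.70), in 36 of 40 fits each. In KO mice Pio on control diet lowered Cyp4a10, a fatty acid hydroxylase gene (-1.55), a call lost without mouse 13 (-1.34) and kept in 36 of 40 fits, and HFD without Pio lowered Cyp4a10 (-2.67), uncalled without control mouse 4. For KO minus WT on control diet, where 7.87% of all genes were called, the Pio response was called lower for 6 and higher for 1 of the 11, Vnn1 and Cyp4a10 among the lower in 40 of 40 fits.

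Of 15 clock genes, edgeR called 4 higher and 3 lower in WT mice given Pio on control diet, where 3.91% of all genes were called. Cry1, a repressor gene, fell from 10.8 ± 2.90 to 3.68 ± 1.26 CPM (SD, n = 5), at -1.54. Npas2, an activator gene, was at -2.10 and Ciart, a repressor gene of the opposite phase, at 2.01, each called in 40 of 40 fits without 1 mouse. Hlf, an output gene, was called higher on HFD (1.14, 34 of 40 fits). On control diet the KO response to Pio exceeded the WT response for Npas2, Cry1 and Arntl, the activator partner gene, and was below it for Ciart, in 40 of 40 fits. Hk2 was called in the same WT comparison as these clock genes. It was also called with Pio on HFD in WT mice, where 0 of the 15 clock genes were called (1.08% of all genes). The part of the clock genes in the Hk2 result was not tested.

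Markers of other cells were read beside the members. The adipocyte list holds 4 genes, of which Retn, the resistin gene, was the 1 tested and the most abundant on average, with Adipoq at most 0.670 and Lep at most 0.164 CPM and at 0 in 10 and 27 of the 40 mice. Their summed level was 0.0772, 0.0372, 0.181, 0.0831 and 0.0659 CPM in WT control mice and 2.63, 4.84, 2.80, 3.18 and 2.44 CPM in WT Pio mice. It was 0.0917, 0.178, 0.136, 0.304 and 0.0600 CPM in WT HFD mice and 2.31, 1.49, 0.318, 0.946 and 0.730 CPM in WT HFD-Pio mice. Every WT mouse given Pio lay above every untreated WT mouse of its diet. Retn alone made up 2.58 of the 2.63 CPM in mouse 841 and 4.76 of the 4.84 in mouse 842. In KO mice the sum was 1.07, 1.29, 0.380, 0 and 0.383 CPM on control diet, 0.247, 0.539, 2.53, 0.0812 and 0.912 with Pio, 1.31, 0.460, 0.388, 0.275 and 1.84 on HFD, and 1.03, 0.162, 0.0810, 0.267 and 0.651 on HFD-Pio, and the groups overlapped. Plin1, a lipid droplet gene and the 4th marker, made up 2.16 of the 2.53 CPM in KO Pio mouse 13. Retn was called higher with Pio in WT mice, at 5.98 and 3.73, in the comparisons that called Hk2, and its part in the Hk2 result was not tested. The Retn response to Pio was called lower in KO than in WT mice, at -6.87 on control diet and -5.19 on HFD.

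All 8 macrophage markers were tested, with 0 calls by edgeR in 112 tests, 3 at an unadjusted p under 0.05 and 0 by DESeq2 or limma. Endothelial markers gave 0 edgeR calls in 56 tests, 0 at an unadjusted p under 0.05 and 0 by DESeq2 or limma. Lymphocyte, stellate and cholangiocyte markers gave 0 edgeR calls each in 56 tests, with 3, 3 and 6 at an unadjusted p under 0.05. DESeq2 called 0, 0 and 1 of these and limma 2, 3 and 0. Of neutrophil and monocyte markers Ngp, a granule protein gene, was called higher on HFD in KO mice, the group of mouse 9. Among erythroid markers Alas2, a heme synthesis gene, was called lower with Pio on control diet in WT mice, and the globin genes Hba-a1 and Hba-a2 higher in KO mice. The hepatocyte marker Cyp2e1, a cytochrome gene, was called lower with Pio on control diet and higher on HFD with Pio in KO mice. For KO minus WT, the Pio response on control diet was called higher for Hba-a1 and Hba-a2 and lower for Cyp2e1. Skeletal muscle and pancreatic acinar markers reached 1 CPM in too few mice to be tested.

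Genes most like each member were ranked by Pearson's r of log2 CPM over the 20 WT mice, among 9280 other genes (9281 for Hk2 and Pgam1), as a description in which the mice of a group share their treatment. Hk2 was most like Anxa2, a membrane-binding protein gene (r = 0.901), Osbpl3, a lipid transfer gene (r = 0.901), and Ly6d, a surface protein gene (r = 0.883). Over the 20 KO mice these were 0.192, 0.355 and 0.689, and over the 19 without Pio mouse 13 0.595, 0.432 and 0.706. Hk1 was most like the kinase gene Dmpk (r = 0.913) and the cytokine receptor gene Csf2ra (r = 0.909), with 0.902 and 0.909 over KO mice (0.739 and 0.726 without mouse 13), and then the myeloid receptor gene Cd300ld (r = 0.885 and -0.512, the latter 0.545 without mouse 13). Hk3 followed the macrophage genes Csf1r (r = 0.796 in WT, 0.792 in KO) and C1qc (r = 0.7803 and 0.904), with Ccdc171 between them (r = 0.789 and -0.601). Over the 19 KO mice without mouse 13, Csf1r, C1qc and Ccdc171 were at 0.855, 0.921 and -0.225.

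Gckr was most like Tspo, a mitochondrial outer membrane gene (r = 0.953), Mcat, a mitochondrial fatty acid synthesis gene (r = 0.938), and Uqcrfs1, a respiratory chain gene (r = 0.932). Over the 20 KO mice they were at -0.886, -0.697 and -0.796, and over the 19 without mouse 13 at 0.0077, 0.719 and 0.825. Slc2a2 was nearest to the genes Cyb5b (r = 0.882), Glul (r = 0.879) and Plbd1 (r = 0.877), at 0.489, 0.687 and -0.326 in KO mice and 0.543, 0.494 and -0.0050 without mouse 13. Pklr was nearest to Hcn3, whose exons it overlaps (r = 0.956 in WT, 0.980 in KO), then Slc25a44, a mitochondrial carrier gene (r = 0.883 and 0.357), and Gabbr2, a receptor gene (r = 0.877 and 0.495), which in KO mice without mouse 13 were at 0.977, 0.825 and 0.326. Pfkl was near to Rundc3a (r = 0.887 in WT and 0.881 in KO) and Hsdl1 (r = 0.857 and 0.697), at 0.427 and 0.205 in KO mice without mouse 13. Pgam1 was nearest to Hdhd2 (r = 0.898 and -0.931), Vdac1, a mitochondrial channel gene (r = 0.890 and -0.699), and Mrpl16 (r = 0.864 and -0.939). Without mouse 13 these KO values turned, to 0.442, 0.267 and 0.268. Pdk4 was nearest to Micu2, a calcium uptake regulator gene (r = 0.851 and 0.434), Fbxw4 (r = 0.822 and 0.360) and Anapc4 (r = 0.798 and -0.00037), at 0.295, 0.109 and 0.314 in KO mice without mouse 13.

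Promoters of all 9 members were found in RefSeq (GRCm38.p6), with 11 starts in windows of 300 bases, 250 before and 50 after the start. The letters AGGTCA, the core to which nuclear receptors such as PPARγ bind, stood on either strand in 2 of the 11, those of Slc2a2 and Pklr, against 16.3% of 32851 promoters of the same length. A direct repeat of these letters spaced by 1 base stood in 0 of 11 (0.0396% of all promoters), and CACGTG, the core letters of E-boxes, in 0 of 11 (7.15% of all). The matches are shown because they are the members' only copies of the letters, in capitals, with the flanking bases in lower case; both lie before the start and in no annotated exon.
Slc2a2, chr3:28697870-28697899, plus strand: cttctgttaaaaAGGTCAgaactacctctc
Pklr, chr3:89135979-89136008, plus strand: aggaaaaacggaTGACCTaggggaagggaa
In Pklr the capitals are the letters read from the minus strand. A match of letters is not a site, and Hk2, the member called in 2 comparisons, had no copy in its window.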

How the data were processed

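The deposited counts are reads per gene, which the authors made by aligning poly-A RNA reads to GRCm38 with STAR 2.0.4b and counting with Subread featureCounts 1.4.5, as whole numbers without normalization. Each genotype had its own table. Repeated lines (574 in the WT and 598 in the KO counts) held equal counts, with 0 that differed, and a single line of each was kept. The 40594 genes of both tables were joined by identifier, 96 genes found in the WT table alone were left out, 355 rRNA genes were removed, and a gene was kept if 5 or more mice had 1 CPM or more of it, which left 12942. The GC column was not used.

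A model with 1 mean per group was fitted to all 40 mice with edgeR 4.0.16 in R 4.3.3 (TMM factors, robust dispersion, quasi-likelihood F test, Benjamini-Hochberg within each of 14 comparisons, calls at 0.05). The steps were tested on simulated data. Also used were limma 3.58.1, DESeq2 1.42.0, the data.table package (version 1.17.8), Python 3.11.15 and matplotlib 3.10.9. Exon lengths and overlaps came from GENCODE M21 and promoters from RefSeq GRCm38.p6.

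The members and the gene and marker lists were chosen with earlier results of these data known. Genes named were the 9 members, Pparg, up to 3 called genes per list and comparison with the smallest adjusted p, and the 3 genes most like each member by Pearson's r of log2 CPM (prior count 2) among genes that averaged 5 CPM or more. Alternatives tried were other size factors (RLE), DESeq2, limma with sample weights, no filter, a filter of 1 CPM in 20 mice, rRNA genes kept, each genotype fitted alone, each mouse left out, and 2 sets of libraries left out.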

Additional observations from a re-analysis of the deposited data

Results flagged for a closer look

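Each of the 9 members was examined in each of the 8 groups, which gave 72 sets of 5 values. In 11 of the 72, 1 mouse lay farther from the rest of its group than Dixon's 95% limit allows. The measure was its gap to the nearest mouse over the range of the group. Chance alone gives this in about 1 in 20 separate sets, but these sets share mice and are not separate. Of the 11, 4 belong to KO Pio mouse 13, 4 to KO HFD mouse 9, 2 to WT control mouse 832 and 1 to WT Pio mouse 841.

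KO Pio mouse 13 was the highest of its group for Hk1 (18.5 CPM), Hk3 (18.6 CPM), Pfkl (83.4 CPM) and Pgam1 (23.8 CPM). KO HFD mouse 9 was the lowest of its group for Slc2a2 (27.9 CPM) and the highest for Hk1 (10.7 CPM), Hk2 (6.45 CPM) and Pfkl (50.1 CPM). WT control mouse 832 was the highest of its group for Hk2 (9.72 CPM) and the lowest for Pgam1 (1.83 CPM). WT Pio mouse 841 was the highest of its group for Slc2a2 (288 CPM). The part of other cells or of RNA quality in these values was not tested.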

How the results depend on the processing

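Results were recomputed under 9 alternatives and with each of 40 mice left out. The 2 alternatives that leave out several libraries were chosen after seeing the data. No paired analysis was possible because mouse numbers are unique to each group. Of the counts of members called, 631 recomputed values stayed within 1.5 times the reported one and 51 did not. Of the recomputed values behind 47 member fold changes, 2221 kept direction and side of the threshold, 33 gained and 21 lost a call, and 14 turned. In each case the cause was not tested.

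Limma called 2 members for Pio on control diet, 2 for Pio on HFD, 2 for HFD with Pio and 2 for the diet dependence in WT mice, 0 for Pio on control diet in KO mice and 1 for that response in KO minus WT. Of all 12942 genes limma called 3095 for Pio on control diet, 2937 for HFD with Pio and 1378 for the diet dependence in WT mice. In KO minus WT it called 1998 for Pio on control diet. DESeq2 called 2 for HFD with Pio in KO mice and 1 each for Pio on control diet and on HFD in KO minus WT. With each genotype fitted alone, Pio on HFD in WT and Pio on control diet in KO mice had 0, as the latter had with no filter. A filter of 1 CPM in 20 mice gave 1 for Pio on control diet in KO minus WT. Without KO Pio mouse 13 and KO HFD mouse 9 the count was 2 for Pio on control diet, 3 for Pio on HFD and 1 for HFD in WT mice, and 0 for Pio on control diet in KO mice. Calls among all genes rose as well, to 1035 from 170 for HFD in WT mice. With WT control mouse 832 left out too, the count of members was 3 for Pio on HFD and 1 for HFD in WT mice, 0 for Pio on control diet in KO mice and 1 for that response in KO minus WT. Pio on HFD in WT mice then called 2011 of all genes, against 140 with every mouse kept.

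Leaving out 1 mouse gave 0 to 1 members for Pio on control diet, 0 to 2 for Pio on HFD and 0 to 1 for HFD in WT mice. It gave 0 to 1 for Pio on control diet and 0 to 2 for HFD with Pio in KO mice, and 0 to 1 for Pio on control diet in KO minus WT.

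Of these 47 log2 fold changes, the following turned. By limma, Hk1 was at -0.10 for Pio on control diet, 0.039 for HFD with Pio and 0.092 for the diet dependence in KO mice, Hk2 at 0.079 for Pio on HFD in KO mice, and Pgam1 at -0.028 for Pio on control diet in KO minus WT. Without mice 13 and 9, Hk2 for Pio on HFD in KO mice was 0.069, and Pgam1 in KO minus WT -0.13 for Pio on control diet and 0.10 for HFD with Pio. Without mouse 832 as well, these were 0.068, -0.00033 and 0.097. With 1 mouse left out, Hk2 ran from -0.70 to 0.070, and Pgam1 from -0.13 to 1.11 and from -1.14 to 0.10. Others outside the 47 turned too, not all of them listed here. Without mouse 13, Pfkl went from 0.14 to -0.17 for Pio on control diet in KO mice. For HFD with Pio in KO mice Pfkl went from -0.29 to 0.032, Hk3 from -0.41 to 0.019 and Slc2a2 from 0.23 to -0.036. Without mouse 9, Slc2a2 went from 0.12 to -0.16 and Hk3 from -0.28 to 0.022 for Pio on HFD in KO mice, and Hk1 from 0.19 to -0.066 for HFD without Pio in KO mice.

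Calls among all genes also moved with the processing. For Pio on control diet in WT mice they ran from 203 (without Pio mouse 845) to 3095 (limma) around the reported 506, for Pio on HFD from 39 (without HFD-Pio mouse 837) to 2011 (without mice 13, 9 and 832) around 140, for HFD from 58 (without HFD mouse 828) to 1035 (without mice 13 and 9) around 170, and for HFD with Pio from 47 (without Pio mouse 845) to 2937 (limma) around 158. In KO mice they ran for Pio on control diet from 0 (genotype alone) to 2318 (without Pio mouse 14) around 1166, and were 66 without mouse 13. Pio on HFD gave 0 (limma) to 8 (DESeq2) around 2, HFD 0 (genotype alone) to 542 (limma) around 24, and HFD with Pio 0 (genotype alone) to 2024 (without Pio mouse 11) around 642, with 12 without mouse 13. The diet dependence gave 0 (no filter) to 1378 (limma) around 10 in WT and 0 to 52 (limma) around 0 in KO mice. For KO minus WT, Pio on control diet gave 537 (without WT Pio mouse 845) to 1998 (limma) around 1018, Pio on HFD 7 (1 CPM in 20 mice) to 354 (limma) around 12, HFD 1 (without WT control mouse 833) to 185 (limma) around 8 and HFD with Pio 1 (no filter) to 975 (limma) around 2.

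Depth limits the members with few counts: Pgam1, Hk2 and Pdk4 had as few as 16, 21 and 30 counts in WT HFD mouse 829. Levels were not tested between WT and KO mice.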
